A study of Danio rerio with 6 samples.

Results

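Cholesterol and fatty acid synthesis was followed through 34 genes in hspd1-/- and hspd1+/+ larvae of the zebrafish (Danio rerio). The genes were chosen by symbol, without regard to case, from a list of 36 enzymes and regulators. Of these symbols, 32 matched genes in the files, which gave 34 of 25859 genes because 2 genes carry the symbol sqle and 2 carry acly. The other 4 symbols, mvda and sqlea among them, matched no gene under those names. All 34 passed the filter on low counts. Symbols are written in lower case, and roles are those known from mammals.

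The gene hspd1 encodes HSP60, the chaperonin that folds proteins imported into the mitochondrial matrix. The control group was hspd1+/+ and the knockout group hspd1-/-, both at 5 dpf (days post fertilization), and both came from in-crosses within 1 line of hspd1+/- carriers, in 3 mating sets. Each group held 3 pools of 5 larvae, genotyped from the tip of the caudal fin, which was removed beforehand. The libraries were poly(A)-selected and held 18517874 to 20331675 counts each, and every difference is given as knockout relative to control, over 3 pools of each. The hspd1 transcript was lower in every knockout pool, at 67.9 to 82.3 CPM (counts per 1000000 counts of the library, with TMM scaling) against 124 to 133 CPM in the controls (log2 fold change −0.79, SE 0.11, edgeR adjusted p = 0.00162). Markers of liver, gut, pancreas, neurons and glia were read in all pools.

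Cholesterol is built from acetyl-CoA. The mevalonate steps join acetyl-CoA units and turn them, by way of mevalonate, into isoprenoid units, and later enzymes join these into squalene, close the rings to lanosterol and trim it to cholesterol. Fatty acid synthesis draws on the same cytosolic acetyl-CoA. Transcription of both branches is driven by SREBP factors, encoded by srebf1 and srebf2, which the escort protein SCAP carries out of the endoplasmic reticulum when sterols are low and which INSIG proteins hold there when sterols are plentiful. In animals the liver is a main site of both branches, and brain and gut also make cholesterol.

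Sterol synthesis transcripts had lower levels on average in the knockout pools, while fatty acid transcripts lay on both sides of 0. Among 18 sterol synthesis genes, hmgcs1 and tm7sf2 fell and none rose, and the median log2 fold change was −1.07. Among 8 fatty acid genes, me1 fell and none rose, and the median log2 fold change was −0.05, or 0.00 with upper-quartile scaling. The median over all 21602 genes tested was −0.01. In total 3 of the 34 genes fell and 0 rose (quasi-likelihood test in edgeR, p adjusted by Benjamini-Hochberg under 0.05), where 2.54% of all genes tested were called lower and 1.47% higher. At an unadjusted p under 0.05, 23 of the 34 were lower and 1 was higher, where 8.81% and 6.79% of all genes were. The 23 comprised 14 of the 18 sterol synthesis genes, 6 of 8 genes of uptake and control, and 3 of the 8 fatty acid genes (me1, acaca and fasn). DESeq2 and limma-voom called 0 of the 34 higher.

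Control pool 2 stood apart in the sterol genes. It was the highest of all 6 pools for 17 of the 18 sterol synthesis genes, against 17.1% of all genes tested. Its level was a median of 2.36 times the mean of the other 2 control pools, with a range of 0.94 to 6.12 times. For the fatty acid genes that ratio was 0.932 to 1.49. Knockout pool 2 was the highest knockout pool for 11 of the 18 sterol genes, or 61.1%, against 30.2% of all genes. Without control pool 2 the median log2 fold change of the sterol genes was −0.45 and that of the fatty acid genes 0.01. In that comparison 2 of the 34 genes, hmgcs1 and tm7sf2, were lower, where 1.66% of all genes were. Without both pools numbered 2, a comparison chosen after seeing the data, 5 were lower (hmgcs1, tm7sf2, lss, msmo1 and the sqle gene ENSDARG00000079946), where 1.37% of all genes were. Without control pool 1 there were 11, where 2.91% of all genes were, and without knockout pool 1, and likewise without knockout pool 3, there was 1 (tm7sf2), where 2.24% and 1.89% of all genes were.

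**Figure D1:**
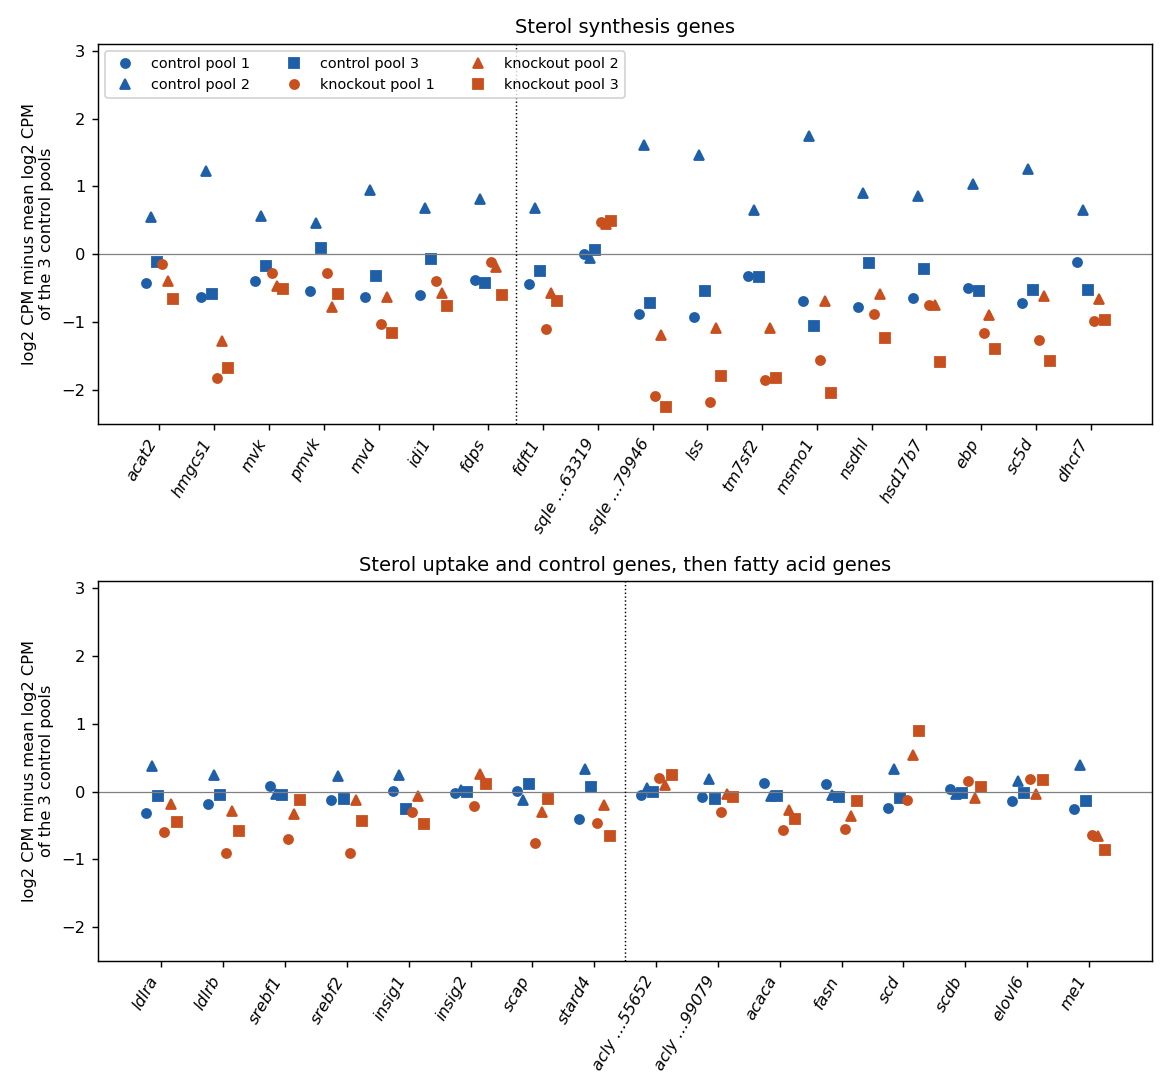
Level of each of the 34 genes in each pool, as log2 CPM minus the mean log2 CPM of the 3 control pools (vertical axis), with sterol synthesis genes in the upper panel and the uptake, control and fatty acid genes in the lower. Blue marks control pools, orange marks knockout pools, and circle, triangle and square mark pools 1, 2 and 3; the triangle of control pool 2 is the highest point for 17 of the 18 sterol synthesis genes, and dotted lines part the role lists.

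In 9 of the 18 sterol synthesis genes all knockout pools lay below all control pools, where 10.6% of all genes did, and in 1 they lay above, where 10.8% did. The 9 genes were hmgcs1, mvd, fdft1, the sqle gene ENSDARG00000079946, lss, tm7sf2, hsd17b7, ebp and dhcr7.

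In the mevalonate steps, 1 of 7 genes fell, where 2.54% of all genes were called lower. All 7 had a log2 fold change below 0, where 50.9% of all genes did. hmgcs1, which makes HMG-CoA from acetyl-CoA units, stood at 91.2, 333 and 94.1 CPM in control pools 1, 2 and 3 and at 40.2, 58.7 and 44.2 CPM in knockout pools 1, 2 and 3. All knockout pools were below all control pools, and control pool 2 was far above the rest. Its mean was 173 ± 139 CPM (SD, n = 3) in the controls and at 47.7 ± 9.74 CPM in the knockouts, a log2 fold change of −1.85 (SE 0.43, edgeR adjusted p = 0.0405). Without control pool 2 the log2 fold change was −0.95, and the gene still passed (edgeR adjusted p = 0.00824). It did not pass without knockout pool 1, 2 or 3 (0.135, 0.081 and 0.104), with DESeq2 (0.0677) or with limma-voom (0.0646).

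The next gene in the route that separated the groups was mvd, the decarboxylase that forms isopentenyl diphosphate, the building block of isoprenoids. It stood at 8.78, 26.0 and 10.9 CPM in the control pools and at 6.64, 8.73 and 6.04 CPM in the knockout pools. The groups met at the edge without overlapping, and the log2 difference of −1.09 (SE 0.35) did not pass (edgeR adjusted p = 0.142) and was −0.45 without control pool 2.

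idi1, the isomerase of those building blocks, stood at 47.1, 114 and 68.0 CPM in the controls and at 54.4, 48.2 and 42.2 CPM in the knockouts. Its groups overlapped, since knockout pool 1 exceeded control pool 1, and the log2 difference was −0.66 (SE 0.26, edgeR adjusted p = 0.237). The phosphomevalonate kinase gene pmvk stood at 3.55, 7.15 and 5.51 CPM in the controls and at 4.30, 3.03 and 3.47 CPM in the knockouts. Here too knockout pool 1 lay above control pool 1, with a log2 difference of −0.58 (SE 0.25, edgeR adjusted p = 0.29). acat2, the thiolase that opens the pathway, mvk, the mevalonate kinase, and fdps, which builds farnesyl diphosphate, had log2 differences of −0.44, −0.47 and −0.41 with overlapping groups (edgeR adjusted p = 0.388, 0.413 and 0.551). Without control pool 2 these were −0.11, −0.13 and 0.13, so fdps turned to the other side of 0.

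From squalene to cholesterol, 1 of 11 genes fell, where 2.54% of all genes were called lower. Of the 11, 10 had a log2 fold change below 0, where 50.9% of all genes did. The median over the 11 was −1.33 (−0.54 without control pool 2). tm7sf2, a sterol reductase that works on intermediates after lanosterol, stood at 14.5, 28.4 and 14.2 CPM in the controls and at 4.98, 8.47 and 5.10 CPM in the knockouts. Every knockout pool was well below the lowest control pool. The mean went from 19.0 ± 8.11 CPM to 6.18 ± 1.98 CPM, a log2 fold change of −1.62 (SE 0.29, edgeR adjusted p = 0.0102), or 3.07-fold lower. It passed in each of the 14 alternatives run, with adjusted p up to 0.0428, and its log2 fold change was −1.20 without control pool 2.

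The entry into this stretch is fdft1, the squalene synthase, which stood at 8.37, 18.3 and 9.58 CPM in the controls and at 5.29, 7.63 and 7.04 CPM in the knockouts. The groups did not overlap, and the log2 difference was −0.86 (SE 0.27, edgeR adjusted p = 0.137). It passed with DESeq2 (0.03), without control pool 1 (0.042) and with the pool number as a block (0.0465). Squalene is then epoxidised by sqle. The sqle gene ENSDARG00000079946 stood at 8.73, 48.8 and 9.74 CPM in the controls and at 3.78, 7.06 and 3.36 CPM in the knockouts. Its log2 difference of −2.24 (SE 0.61) did not pass (edgeR adjusted p = 0.0804), although the groups did not overlap, and it was −0.95 without control pool 2. The other sqle gene, ENSDARG00000063319, was the exception of the whole route. It stood at 1.42, 1.36 and 1.48 CPM in the controls and at 1.97, 1.93 and 2.00 CPM in the knockouts, with all knockout pools above all control pools and no high control pool 2. The log2 difference was 0.47 (SE 0.21, edgeR adjusted p = 0.312). Reads of similar gene copies, as of sqle, acly and the ldlr pair, may be split between them with error.

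lss, the cyclase that forms lanosterol, stood at 5.58, 29.2 and 7.31 CPM in the controls and at 2.33, 4.96 and 3.05 CPM in the knockouts. Every knockout pool was below every control pool, and the log2 difference was −2.02 (SE 0.57, edgeR adjusted p = 0.0891), or −0.89 without control pool 2. msmo1, the oxidase that removes methyl groups from lanosterol products, stood at 31.3, 170.1 and 24.2 CPM in the controls and at 17.2, 31.2 and 12.2 CPM in the knockouts. Its groups overlapped, because knockout pool 2 was above control pool 3, and the log2 difference of −1.90 (SE 0.65, edgeR adjusted p = 0.167) was −0.45 without control pool 2.

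The partners of msmo1 in this demethylation are nsdhl and hsd17b7. nsdhl stood at 5.73, 18.4 and 8.95 CPM in the controls and at 5.34, 6.53 and 4.15 CPM in the knockouts, with overlap and a log2 difference of −1.04 (SE 0.36, edgeR adjusted p = 0.174). hsd17b7 stood at 8.42, 23.7 and 11.3 CPM against 7.83, 7.79 and 4.36 CPM, without overlap and with a log2 difference of −1.12 (SE 0.35, edgeR adjusted p = 0.132). In both, control pool 2 was above every other pool, and control pool 1 lay close to knockout pools 1 and 2.

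Late steps move and remove double bonds. ebp, the sterol isomerase, stood at 8.73, 25.2 and 8.47 CPM in the controls and at 5.50, 6.64 and 4.68 CPM in the knockouts, without overlap, and its log2 difference was −1.33 (SE 0.38, edgeR adjusted p = 0.0951). sc5d, the sterol desaturase, stood at 9.74, 38.2 and 11.1 CPM against 6.69, 10.4 and 5.36 CPM, with knockout pool 2 above control pool 1, and its log2 difference was −1.39 (SE 0.47, edgeR adjusted p = 0.166). dhcr7, which yields cholesterol or desmosterol in the last reduction, stood at 74.1, 126 and 55.8 CPM in the controls and at 40.6, 51.1 and 41.3 CPM in the knockouts. The groups of dhcr7 did not overlap, and its log2 difference was −0.94 (SE 0.25, edgeR adjusted p = 0.0673). It passed without control pool 3 (0.0161) and with the pool number as a block (0.0205). Without control pool 2 the log2 differences of nsdhl, hsd17b7, ebp, sc5d and dhcr7 were −0.45, −0.56, −0.61, −0.46 and −0.54.

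**Figure D2:**
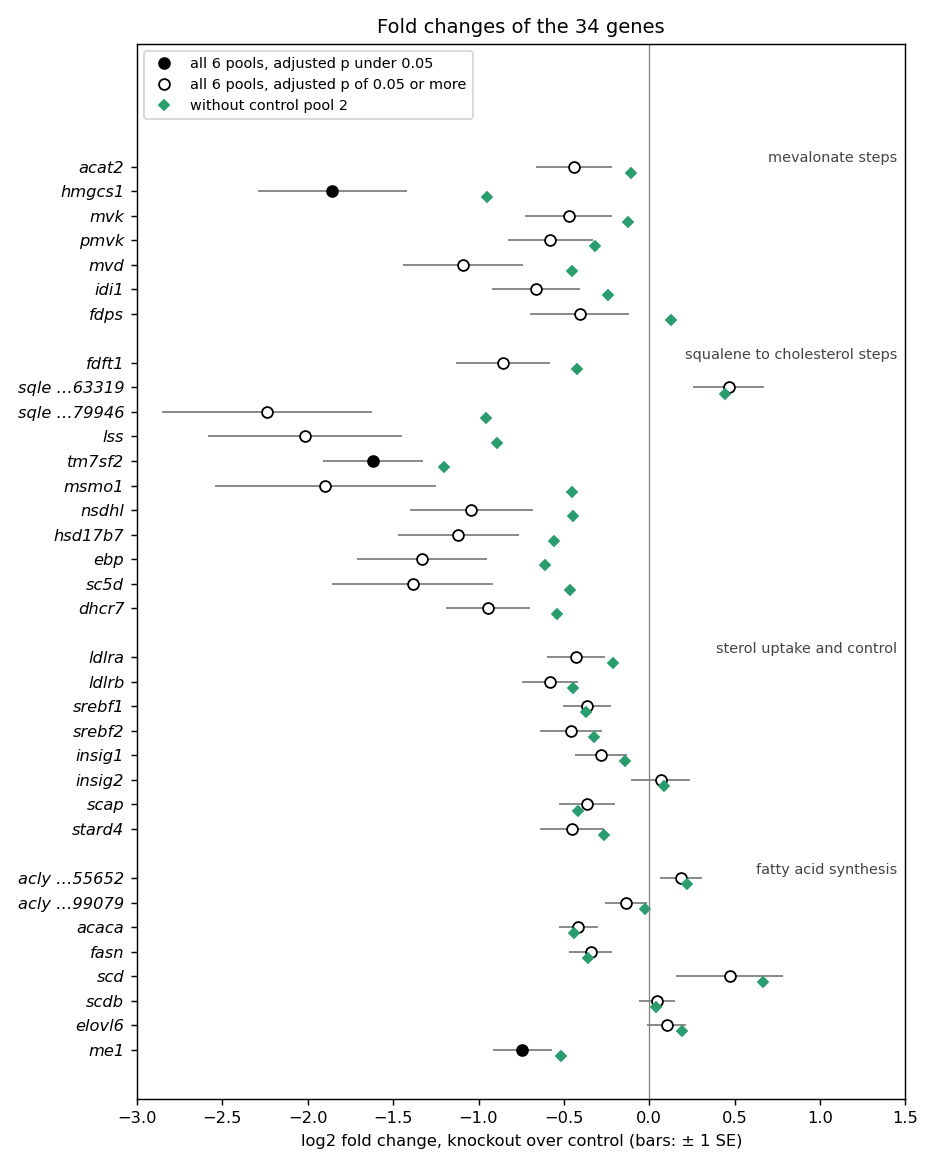
Log2 fold change of each of the 34 genes, knockout over control (horizontal axis), with bars of ± 1 SE, grouped by role. Filled circles mark hmgcs1, tm7sf2 and me1, which passed an adjusted p of 0.05; green diamonds give the same value without control pool 2, which lies nearer to 0 for most sterol synthesis genes (median −0.45 in place of −1.07).

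Among 8 genes of sterol uptake and control, edgeR called 0 lower and 0 higher, where it called 2.54% and 1.47% of all genes. At an unadjusted p under 0.05, 6 were lower and 0 higher, where 8.81% and 6.79% of all genes were. DESeq2 called 1 lower (ldlrb, adjusted p = 0.0366) and 0 higher, against 695 and 395 of all genes. With limma-voom 0 were called in either direction. The median log2 fold change was −0.40, and −0.30 without control pool 2. ldlrb, a receptor that takes up low-density lipoprotein, stood at 18.7, 25.1 and 20.4 CPM in the controls and at 11.4, 17.4 and 14.2 CPM in the knockouts. Its knockout pools were all below its control pools, at a log2 difference of −0.58 (SE 0.17, edgeR adjusted p = 0.0916). Its paralog ldlra stood at 61.6, 98.8 and 73.3 CPM against 50.8, 67.2 and 55.8 CPM, with knockout pool 2 above control pool 1, and a log2 difference of −0.43 (SE 0.17, edgeR adjusted p = 0.253).

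The SREBP control genes srebf2, srebf1 and scap were lower at an unadjusted p under 0.05, and did not pass after adjustment in edgeR. srebf2, whose product mainly drives sterol genes, stood at 82.3, 105 and 82.5 CPM in the controls and at 47.8, 82.0 and 66.4 CPM in the knockouts, at a log2 difference of −0.46 (SE 0.18, edgeR adjusted p = 0.246). Its groups did not overlap, though the lowest control pools and knockout pool 2 were almost level. srebf1, tied more to fatty acid genes, stood at 25.1, 23.1 and 22.8 CPM against 14.6, 18.9 and 21.8 CPM, a log2 difference of −0.36 (SE 0.14, edgeR adjusted p = 0.238). The groups of srebf1 did not overlap either, control pool 2 was not raised, and knockout pool 1 was the lowest pool, as it was for srebf2. scap also had its lowest level in knockout pool 1, at 15.8, 14.4 and 16.9 CPM in the controls and at 9.23, 12.8 and 14.6 CPM in the knockouts, at a log2 difference of −0.36 with overlap (SE 0.16, edgeR adjusted p = 0.31). The summed level of 4 neuron markers was also lowest in that pool, at 779.7 CPM against 1046 to 1361 CPM in the other 5 pools. Of the 4, elavl3, elavl4 and sv2a were lowest there, and gap43 was not (56.7 CPM, against 54.9 CPM in control pool 1). The part of these markers in the values above was not tested.

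insig1, which retains the SREBP complex and is itself an SREBP target, stood at 43.4, 51.1 and 35.8 CPM in the controls and at 35.0, 41.3 and 30.7 CPM in the knockouts, with overlap (log2 difference −0.28, edgeR adjusted p = 0.41). insig2 stood at 3.60 to 3.71 CPM in the controls and at 3.16 to 4.39 CPM in the knockouts, at a log2 difference of 0.07 (edgeR adjusted p = 0.892). stard4, a carrier of cholesterol within the cell, stood at 9.95, 16.5 and 13.7 CPM against 9.54, 11.4 and 8.30 CPM, with overlap and a log2 difference of −0.45 (SE 0.19, edgeR adjusted p = 0.278).

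Fatty acid genes differed among themselves: 4 of the 8 had a log2 fold change below 0, against 50.9% of all genes. me1, the cytosolic malic enzyme that supplies NADPH, stood at 11.9, 18.4 and 12.9 CPM in the controls and at 9.02, 8.94 and 7.78 CPM in the knockouts. The groups did not overlap, and the knockout pools lay close together. Its mean went from 14.4 ± 3.54 CPM to 8.58 ± 0.696 CPM, a log2 fold change of −0.74 (SE 0.17, edgeR adjusted p = 0.0382), or 1.68-fold lower. The call was lost when any pool other than control pool 1 was left out (0.0697 to 0.13), with upper-quartile scaling (0.0507) and with limma-voom (0.0513), and it held with DESeq2 (0.00617).

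The committed steps, acaca and fasn, did not pass in edgeR. acaca, the acetyl-CoA carboxylase that makes malonyl-CoA, stood at 68.2, 59.6 and 59.6 CPM in the controls and at 42.0, 51.8 and 46.9 CPM in the knockouts. All its knockout pools were below all its control pools, at a log2 difference of −0.41 (SE 0.11, edgeR adjusted p = 0.0831) that passed with DESeq2 (0.0359). fasn, the fatty acid synthase, stood at 89.8, 80.4 and 78.6 CPM in the controls and at 56.3, 64.3 and 75.6 CPM in the knockouts, also without overlap, and its log2 difference was −0.34 (SE 0.13, edgeR adjusted p = 0.201). Control pool 2 was not the highest pool for either gene. Without that pool their log2 differences were −0.44 and −0.36.

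acly, the lyase that makes cytosolic acetyl-CoA from citrate, has 2 genes. ENSDARG00000099079, the better read of them, stood at 95.6, 116 and 94.4 CPM in the controls and at 82.3, 99.4 and 96.4 CPM in the knockouts, with overlap (log2 difference −0.14, SE 0.12, edgeR adjusted p = 0.649). ENSDARG00000055652 stood at 7.0 to 7.53 CPM against 7.74 to 8.62 CPM, with the knockout pools above the controls and a log2 difference of 0.18 (edgeR adjusted p = 0.527). The desaturase gene scdb stood at 79.2 to 83.4 CPM in the controls and at 75.6 to 90.2 CPM in the knockouts (log2 difference 0.05, edgeR adjusted p = 0.878). scd, of the same family, stood at 0.913 to 1.36 CPM against 0.985 to 2.00 CPM (0.47, adjusted p = 0.516). elovl6, which lengthens palmitate, stood at 23.7 to 28.9 CPM against 25.3 to 29.5 CPM (0.10, adjusted p = 0.725). The groups of these last 3 genes overlapped.

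Summed levels set the branches side by side. The 18 sterol synthesis genes summed to 389.9, 1145 and 407 CPM in control pools 1, 2 and 3 and to 282, 332 and 242 CPM in the knockout pools. The 8 fatty acid genes summed to 380.5, 391 and 359.6 CPM and to 318, 335 and 351 CPM. Neither sum overlapped between groups, and control pool 2 was set far apart in the sterol sum and not in the fatty acid sum. Relative to the control mean, the mean log2 level of the sterol genes was −0.53, 0.89 and −0.36 in the control pools and −0.96, −0.66 and −1.15 in the knockout pools. That of the fatty acid genes was −0.06, 0.12 and −0.06 in the controls and −0.21, −0.11 and −0.02 in the knockouts, where knockout pool 3 lay within the controls. The sums are dominated by the genes with most reads, and no test was made of the difference between branches.

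**Figure D3:**
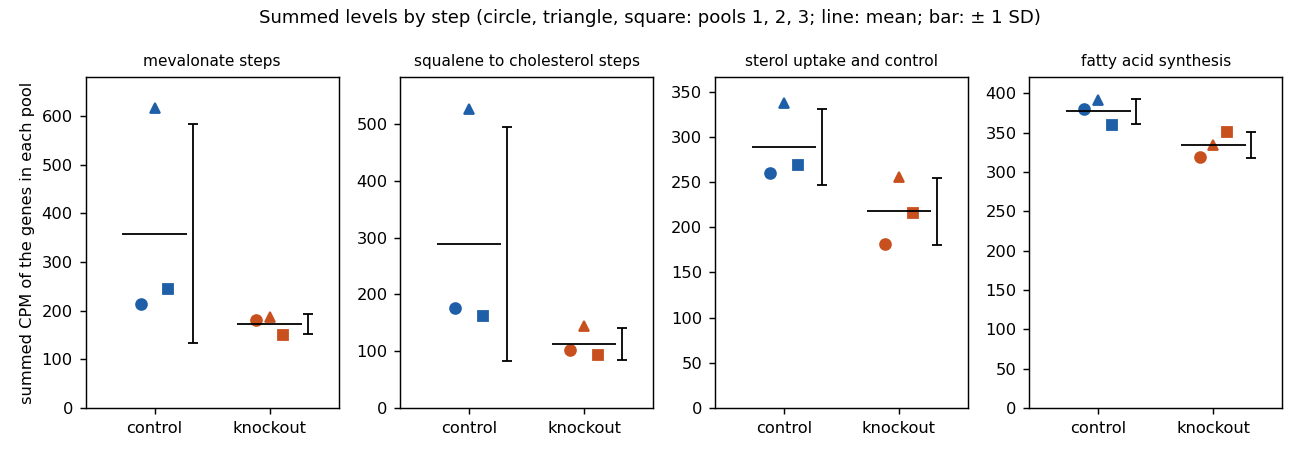
Summed CPM (vertical axis, from 0) of the genes of each role in each pool, with blue for control and orange for knockout pools; horizontal lines are means and bars ± 1 SD (n = 3). In both sterol synthesis panels the triangle of control pool 2 (617 and 528 CPM) lies far above the other control pools (162 to 245 CPM), while the fatty acid panel spans 318 to 391 CPM over all pools.

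Most markers of liver, gut and acinar pancreas fell in the knockout pools, where 2.54% of all genes were called lower. Markers of neurons and myelinating glia had no call. Of 13 hepatocyte markers 10 fell and 0 rose (edgeR; DESeq2 and limma-voom also called 0 higher, as did an unadjusted p under 0.05), and their summed level was 4091 to 4712 CPM in the controls and at 1003 to 1375 CPM in the knockouts. Of 6 markers of absorptive gut cells 5 fell, with sums of 1986 to 2876 CPM and 828 to 1213 CPM. All 5 markers of acinar pancreas fell, with sums of 2528 to 4483 CPM and 926.5 to 1024 CPM. The 4 neuron markers all had a log2 fold change below 0 (median −0.27), where 50.9% of all genes did. Their sums overlapped, at 1099 to 1361 CPM in the controls and 779.7 to 1166 CPM in the knockouts. Among 6 myelinating glia markers none passed in either direction by edgeR, DESeq2 or limma-voom, nor at an unadjusted p under 0.05, with sums of 299.8 to 312 CPM and 297 to 312 CPM. The median log2 fold change of the glia markers was −0.05. In control pool 2 the gut sum of 2876 CPM was above those of control pools 1 and 3 (1986 and 2093 CPM), while its liver sum of 4712 CPM was near that of control pool 3 (4602 CPM). No tested marker was at 0 in any pool. In whole larvae, fewer cells of a type and less RNA per cell cannot be told apart, and the part of these markers in the sterol and fatty acid values was not tested.

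Other enzymes of sterol and isoprenoid synthesis, outside the chosen list, also lay below 0 in their log2 fold changes. Of 6 tested, edgeR called 0 lower and 0 higher, where it called 2.54% and 1.47% of all genes. At an unadjusted p under 0.05, 4 were lower and 0 higher, where 8.81% and 6.79% of all genes were. DESeq2 called 1 lower (faxdc2, adjusted p = 0.0105) and 0 higher, against 695 and 395 of all genes, and limma-voom called 0. The median log2 fold change was −0.47 (−0.32 without control pool 2), and control pool 2 was the highest of all pools for 5 of the 6. cyp51a1, the lanosterol demethylase, stood at 51.6, 184 and 51.7 CPM in the controls and at 31.1, 55.9 and 29.1 CPM in the knockouts, overlapping through knockout pool 2 (log2 difference −1.31, edgeR adjusted p = 0.178). Its log2 difference was −0.41 without control pool 2 (0.548), and −0.78 without both pools numbered 2, where it passed (0.03). faxdc2, lbr and ggps1 had log2 differences of −0.50, −0.40 and −0.33 without overlap (edgeR adjusted p = 0.0736, 0.1 and 0.174). lbr, the lamin B receptor, is a sterol reductase like tm7sf2. ggps1, in which control pool 2 was not the highest, makes geranylgeranyl diphosphate, an isoprenoid and not a sterol.

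Of 23 other genes of sterol transport and control, 3 fell and 1 rose, where edgeR called 2.54% of all genes lower and 1.47% higher. npc1l1, the transporter that takes up dietary cholesterol in the gut, stood at 35.0, 51.6 and 37.1 CPM in the controls and at 6.95, 18.3 and 9.46 CPM in the knockouts. The groups did not overlap, and the log2 fold change of −1.83 (SE 0.29, edgeR adjusted p = 0.00468) passed in all 14 alternatives. abcg8, a subunit of a sterol exporter, fell from 5.42 ± 0.888 CPM to 2.72 ± 0.47 CPM (log2 fold change −0.997, edgeR adjusted p = 0.0147), and lost its call without control pool 3 (0.0805) or knockout pool 2 (0.0696). abcg5, of the same family, had no call, and its groups overlapped (log2 difference 0.04, SE 0.18, edgeR adjusted p = 0.942). abca1b, an exporter of cholesterol to lipoproteins, fell from 142 ± 20.4 CPM to 97.8 ± 2.94 CPM (log2 fold change −0.54, edgeR adjusted p = 0.0321). Its call was lost with upper-quartile scaling (0.0508) and when any pool other than control pool 1 was left out (0.0691 to 0.162). The related gene abca1 had no call, and its groups overlapped (log2 difference −0.0075, SE 0.25, edgeR adjusted p = 0.992). The mean of abca1 was 119.8 ± 37.65 CPM for control pools and 119.2 ± 40.92 CPM for knockout pools. soat1, which esterifies cholesterol for storage, stood at 4.06, 2.73 and 3.60 CPM in the controls and at 5.44, 6.90 and 7.15 CPM in the knockouts. It was the gene that rose, with a log2 fold change of 0.90 (SE 0.19, edgeR adjusted p = 0.0205), and it did not pass when a pool numbered 2 or 3 of either group was left out (0.065 to 0.0763).

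A further 24 fatty acid genes were read, those of mitochondrial synthesis set aside. Of these 24, edgeR called 3 lower and 0 higher, where it called 2.54% and 1.47% of all genes. DESeq2 and limma-voom also called 0 higher. At an unadjusted p under 0.05, 6 were lower and 3 higher, where 8.81% and 6.79% of all genes were. The median log2 fold change was −0.08. elovl2, which lengthens polyunsaturated fatty acids, stood at 43.2, 134 and 64.5 CPM in the controls and at 16.3, 22.4 and 16.0 CPM in the knockouts. Here control pool 2 was high as in the sterol genes, and all knockout pools were far below all control pools. The log2 fold change was −2.14 (SE 0.35, edgeR adjusted p = 0.00527), −1.55 without control pool 2, and it passed in all 14 alternatives. hacd2, a dehydratase of the same elongation cycle, fell from 101 ± 9.06 CPM to 65.2 ± 2.76 CPM (log2 fold change −0.63, edgeR adjusted p = 0.00699). The citrate carrier gene slc25a1 (ENSDARG00000076381), which exports the citrate that acly uses, fell from 85.0 ± 13.6 CPM to 53.8 ± 5.10 CPM (log2 fold change −0.66, edgeR adjusted p = 0.0196). As for soat1, it did not pass when a pool numbered 2 or 3 of either group was left out (0.0587 to 0.0985). The related gene slc25a1a had no call, and its groups overlapped (log2 difference −0.05, SE 0.15, edgeR adjusted p = 0.913). Without both pools numbered 2, abcg8, soat1, abca1b, hacd2 and slc25a1 did not pass (0.0629 to 0.365). elovl1 (ENSDARG00000103735) stood at a log2 difference of 0.28 (edgeR adjusted p = 0.193).

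**Figure D4:**
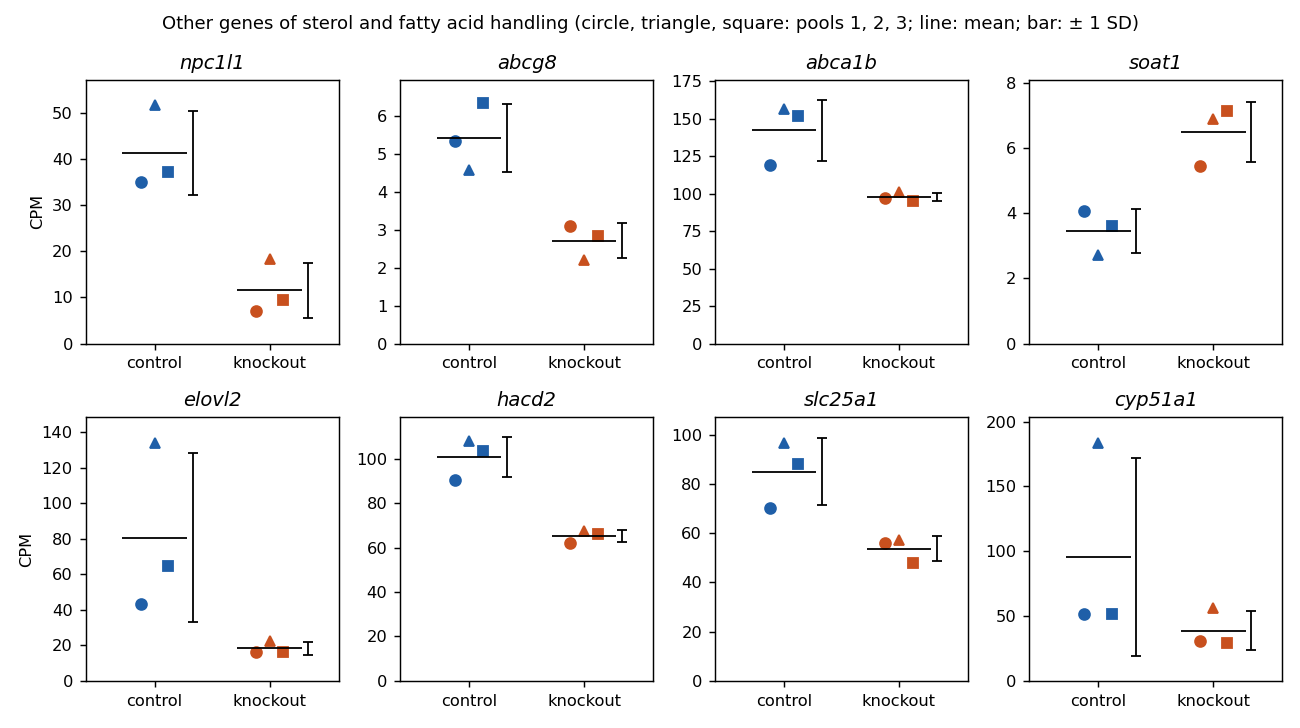
CPM (vertical axes, from 0) of 8 further genes of sterol and fatty acid handling in each pool, with blue for control and orange for knockout pools, horizontal lines for means and bars for ± 1 SD (n = 3). The gene soat1 is higher in every knockout pool, npc1l1, abcg8, abca1b, elovl2, hacd2 and slc25a1 are lower in every knockout pool, and cyp51a1 overlaps between groups.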

How the data were processed

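Poly(A)-selected, non-stranded libraries of 6 pools were sequenced, and the authors deposited 1 file of estimated counts per Ensembl gene for each pool, stored as whole numbers. The submitters' processing notes name build GRCz11 and the tools Salmon, Trim Galore, FastQC and DESeq2, whose roles and versions are not given in the sources used here. A table pairing gene IDs with symbols named 23598 of 25859 genes. Genes were filtered with filterByExpr (21602 kept), scaled by TMM and tested by quasi-likelihood in edgeR 4.0.16 (R 4.3.3), fitting genotype alone, with Benjamini-Hochberg adjustment over all genes tested, at a threshold of 0.05. Each SE is the size of the log2 fold change divided by the root of the F statistic. Log levels used a prior count of 2.

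The pools carry numbers 1 to 3 per group, used as names, and the labels tell of separate mating sets without tying numbers to them. No pools of a group were alike within counting noise (chi-square per degree of freedom 7.22 to 20.6), and p-values measure the spread between these pools. Not every step of the mevalonate route is reported here. Members and lists were chosen with earlier results of these data known. The text gives pool values for members with p under 0.05, for the member of each role with the highest mean, and for others where a role is described, and up to 4 genes of each other pathway list by smallest p. The related genes abca1, abcg5 and slc25a1a were added beside abca1b, abcg8 and slc25a1. The symbols elovl1, elovl4 and elovl7 were added to the lists after the names were matched. Alternatives were RLE and upper-quartile scaling, dropping the filter, filtering at 1 CPM in 3 pools, DESeq2 1.42.0, limma-voom (limma 3.58.1), a block for the replicate number, leaving out each pool, and, added later, both pools numbered 2 left out. Reads of overlapping genes and of similar copies cannot be fully told apart without strand.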

Additional observations from a re-analysis of the deposited data

How the results depend on the processing

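The number of the 34 genes called lower was 3, where 549 of all genes were. It was 5 with DESeq2 (695 of all genes), 1 with limma-voom (518 of all genes) and 5 without both pools numbered 2 (297 of all genes). With each pool left out in turn it was 1 to 11 (360 to 635 of all genes), and the number called higher was 0 throughout. The median log2 fold change of the sterol genes ranged from −1.35 to −0.45 with a pool left out, and that of the fatty acid genes from −0.07 to 0.01. Over all genes, 549 lower and 317 higher calls became 297 and 133 without both pools numbered 2, and 360 to 635 and 189 to 346 with a pool left out. Over all genes tested, deviations from the group means of same-numbered pools correlated at −0.199, 0.1 and −0.0742 for numbers 1, 2 and 3, and only the pools numbered 2 correlated best with each other. In the 11 genes from squalene to cholesterol, control pool 2 was the highest control pool for 10, or 90.9%, against 32.1% of all genes. Knockout pool 2 was the highest knockout pool for 9, or 81.8%, against 30.2% of all genes. With the number as a replicate block, 12 of the 34 genes and 487 of all genes were lower, abca1b did not pass (adjusted p = 0.072) and cyp51a1 did (0.0119). The 12 were ldlrb, me1 and 10 of the 18 sterol synthesis genes. Those 10 were hmgcs1, mvd, fdft1, the sqle gene ENSDARG00000079946, lss, tm7sf2, msmo1, ebp, sc5d and dhcr7. Of 588 values for 42 named genes, 521 kept direction and side of the threshold, and 1 changed sign (mecr, −0.21 to 0.0057 with a pool left out, 0.0057 without knockout pool 3). Outside these 42, fdps changed sign without control pool 2 (0.13). Upper-quartile scaling moved the median of all genes by 0.0491. hspd1 kept its call in all alternatives but 1, the omission of both pools numbered 2 (adjusted p = 0.0667). That omission was chosen after seeing the data. The cause of these changes was not tested, and 3 pools per group limit the precision.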

Other observations

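Fatty acid synthesis inside mitochondria, which makes the precursor of lipoic acid, uses other genes than the cytosolic route. Of 9 tested, 0 passed in either direction by edgeR, DESeq2 or limma-voom, where edgeR called 2.54% of all genes lower and 1.47% higher. At an unadjusted p under 0.05 there were 0 as well, where 8.81% of all genes were lower and 6.79% higher. Their median log2 fold change was 0.05, and their log2 values ran from −0.11 to 0.23. oxsm, the ketoacyl synthase, stood at 10.0, 8.08 and 8.58 CPM in the control pools and at 9.33, 10.6 and 11.3 CPM in the knockout pools, with a log2 difference of 0.23 (edgeR adjusted p = 0.467). hsd17b8, mcat and mecr had log2 differences of 0.22, 0.16 and −0.11 (edgeR adjusted p = 0.655, 0.752 and 0.793).

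Steroid hormones are made from cholesterol. Genes matched to cyp11a1, also listed among the steroid hormone genes, did not pass the filter on low counts. Of 4 steroid hormone genes tested, 1 fell, where 2.54% of all genes were called lower. All 4 had a log2 fold change below 0, where 50.9% of all genes did. The gene that fell was cyp21a2, a steroid hydroxylase (log2 fold change −1.03, SE 0.22, edgeR adjusted p = 0.026). It stood at 2.89, 2.29 and 2.38 CPM in the control pools and at 1.35, 1.04 and 1.31 CPM in the knockout pools, without overlap. It did not pass without control pool 2 (0.0591), without both pools numbered 2 (0.195) or with DESeq2 (0.0583). star, the carrier of cholesterol into mitochondria, stood at a log2 difference of −0.26 (edgeR adjusted p = 0.575). Control pool 2 was not set apart in the 4 tested genes, whose summed level was 15.8, 15.6 and 15.0 CPM over the controls. In knockout pools 1, 2 and 3 that sum was 13.6, 10.7 and 12.3 CPM, below every control pool.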
